A study of Mus musculus with 2 samples.

Results

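The 10 genes studied here set how long cytokine messenger RNAs last, and they were followed in cultured mouse Th17 cells, a CD4 T cell subset that makes IL-17A and IL-17F. The members were taken by gene symbol, and all 10 were found among the 15574 genes listed in the series. They are the tandem zinc finger genes Zfp36, Zfp36l1 and Zfp36l2, the Regnase genes Zc3h12a and Zc3h12d, the Roquin genes Rc3h1 and Rc3h2, the deadenylation adaptors Btg1 and Btg2, and Arid5a. The first 9 are called decay factors here, and Arid5a stands against them as a stabilizer. Messenger RNA was counted in 1 library of cells labelled CREB knockout and 1 library of wildtype cells, both on a C57BL/6 background. Naive T cells of each genotype had been cultured for 6 days in the cytokines IL-6, IL-1 beta, IL-23 and TGF-beta, and both cultures then received plate-bound CD3 stimulation for 4 h before RNA extraction. How CREB was removed, and from how many animals the cells came, were not given in the labels.

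Cytokine transcripts are made in short bursts and removed quickly. The ZFP36 proteins bind AU-rich elements in 3′ untranslated regions (3′ UTRs) and recruit the CCR4-NOT deadenylase, which shortens the poly(A) tail. Regnase-1, encoded by Zc3h12a, is a ribonuclease that cuts stem-loops, and Roquin-1 and Roquin-2 bind stem-loops and also recruit deadenylation. BTG1 and BTG2 bind the CNOT7 and CNOT8 deadenylases and are known for keeping T cells quiescent. ARID5A binds some of the same transcripts as Regnase-1 and protects them, and Il6 is its best known target. CREB is a transcription factor that responds to cyclic AMP and binds the cyclic AMP response element in promoters.

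The library labelled CREB KO had an effective size of 24002137 reads and the wildtype library one of 26454714, which are the read totals times scaling factors of 1.0027 and 0.9973. With 1 library per genotype there is no replicate error and no p-value, so each difference is one between these libraries. Intervals are 95% intervals for counting error only, and reads without molecular identifiers are not independent molecules. The libraries spread more widely than counting error. The SD of log2 knockout/wildtype ratios was 0.121 over the 2162 genes averaging at least 100 counts-per-million units (CPM), where counting alone gives 0.0302 at the median. The targeted gene Creb1 had 25 reads in the library labelled CREB KO and 13 in the wildtype library, a ratio of 2.08 (1.04 to 4.51). Its count thus did not bear out the label, but at a mean of 0.766 CPM it was below the level for a call, and the deleted part of the gene is not known, so the counts could not check the genotype. Every direction below rests on the label alone. T cell genes were abundant, with Cd4 at 815 CPM in the library labelled CREB KO and 874 CPM in wildtype, and Cd3e at 435 CPM in the library labelled CREB KO and 419.7 CPM in wildtype; Trac had no reads listed. Of 9 markers of B cells, myeloid cells and natural killer cells, 5 had no reads in either library, and the B cell markers summed to 1.17 and 1.06 CPM and the myeloid ones to 1.04 and 0.794 CPM in the knockout-labelled and wildtype libraries. Of CD8 T cell markers, Cd8a had no reads and Cd8b1 had 234 CREB KO and 237 wildtype reads, and the regulatory T cell gene Foxp3 had 3 CREB KO and 5 wildtype reads. Trac had no reads although it is a T cell gene, so a marker without reads here need not be absent from the cells.

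The decay regulators differed little between the libraries. A gene was counted as apart if its ratio reached 1.2-fold with an interval excluding 1. The 1.2-fold limit was set from earlier results of these data, at about where the central 90% of ratios ends. By that rule 0 of 10 members were higher and 0 of 10 were lower in the library labelled CREB KO. Across all 10462 genes averaging at least 1 CPM, 6.19% were higher and 5.48% were lower, so a count of 0 among 10 genes does not set the members apart from genes at large. The 9 decay factors together had 43248 reads in the library labelled CREB KO and 47393 in the wildtype library, which is 1802 CPM for CREB KO and 1791 CPM for wildtype. Their summed ratio was 1.01 (0.993 to 1.02). The ratios of the members ran from 0.889 for Zfp36 to 1.17 for Rc3h1. All 10 lay inside the central 90% of ratios of genes at a like level. Levels were taken in wide bands of 1 to 10, 10 to 100 and 100 CPM or more. This placing uses the same ratios as the count of 0, so it is not separate support.

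**Figure D1:**
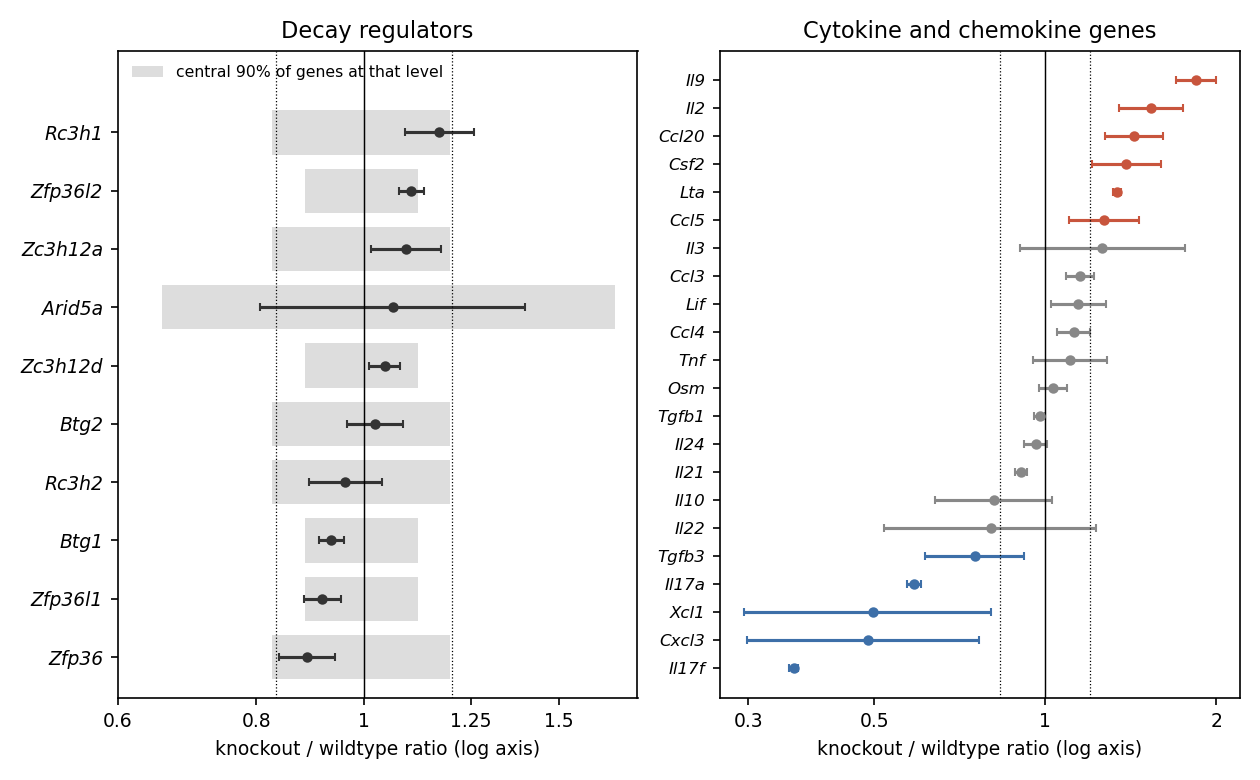
Knockout/wildtype ratios (log axes) of the decay regulators (left) and of the cytokine and chemokine genes averaging at least 1 CPM (right), with 95% counting intervals; dotted lines mark 1.2-fold. Grey bands on the left hold the central 90% of genes at the same level, and all 10 regulators lie inside them, while on the right 6 genes are higher (red), 5 are lower (blue) and 11 are neither (grey).

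The ZFP36 family had similar totals in both libraries, and its members leaned in different directions. Zfp36, which encodes tristetraprolin, the AU-rich element binding protein that restrains TNF, lies at chr7:28376784-28380253 on the minus strand (GRCm38, as for all positions here). It had 2074 reads in the library labelled CREB KO and 2571 in the wildtype library, or 86.4 CPM for CREB KO (82.7 to 90.2) against 97.2 CPM for wildtype (93.5 to 101.0). Its counting intervals did not overlap, and its ratio of 0.889 (0.839 to 0.942) was the lowest of the 10 members. Even so, 11.6% of the 7215 genes averaging at least 10 CPM had a lower ratio.

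Zfp36l1 (chr12:80107754-80113013, minus strand), which acts on the same elements and has roles in lymphocyte development, leaned the same way. It had 209 CPM in the library labelled CREB KO and 228 CPM in the wildtype library, from 5028 CREB KO and 6037 wildtype reads, a ratio of 0.918 (0.884 to 0.953). Zfp36l2 (chr17:84183931-84187947, minus strand) leaned the other way. This paralog had 468 CPM in the library labelled CREB KO and 424 CPM in the wildtype library, from 11227 CREB KO and 11209 wildtype reads, a ratio of 1.10 (1.08 to 1.13).

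Set against each other within a library, the paralogs need no scaling. The Zfp36l2 ratio was 1.24 times that of Zfp36 (1.16 to 1.32) and 1.203 times that of Zfp36l1 (1.15 to 1.26). Zfp36l1 and Zfp36 did not differ beyond counting error, at 1.03 (0.963 to 1.11). These intervals hold counting error only, and each paralog's own ratio lay inside the central 90% of genes at a like level. With 1 library per genotype, a difference in the make-up of the family between genotypes is not shown. Summed over the family there were 764 CPM in the library labelled CREB KO and 749 CPM in the wildtype library, a ratio of 1.02 (0.999 to 1.04). Per kilobase of transcript, Zfp36l2 made up 56.7% of the family in the library labelled CREB KO and 51.9% in the wildtype library, and Zfp36 made up 13.3% in CREB KO and 15.1% in wildtype.

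Both Regnase genes leaned slightly higher. Zc3h12a (chr4:125118423-125127840, minus strand), the gene for Regnase-1, had 1478 reads in the library labelled CREB KO and 1493 in the wildtype library. That is 61.6 CPM for CREB KO (58.5 to 64.8) against 56.4 CPM for wildtype (53.6 to 59.4), and a ratio of 1.09 (1.01 to 1.17). Zc3h12d (chr10:7832470-7870396, plus strand), a relative that is rich in lymphocytes, had 306 CPM in the library labelled CREB KO and 293 CPM in the wildtype library, a ratio of 1.05 (1.01 to 1.08). The lower bounds of both ratios were just above 1, and the pair did not differ from each other beyond counting error, at 1.04 for Zc3h12a over Zc3h12d (0.964 to 1.13). Zc3h12d was the more abundant of the pair per kilobase, with 77.0% of their summed level in the library labelled CREB KO and 77.8% in the wildtype library.

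The Roquin genes, whose products share a RING finger and a ROQ domain, leaned different ways. Rc3h1 (chr1:160906418-160974978, plus strand) encodes Roquin-1, the protein mutated in sanroque mice. It had 1565 reads in the library labelled CREB KO and 1475 in the wildtype library, or 65.2 CPM for CREB KO against 55.8 CPM for wildtype. Its ratio of 1.17 (1.09 to 1.26) was the highest of the members, and 94.6% of genes averaging at least 10 CPM had a lower one. Rc3h2 (chr2:37370069-37422903, minus strand), the gene for Roquin-2, which can stand in for Roquin-1 in T cells, had 53.0 CPM in the library labelled CREB KO and 55.1 CPM in the wildtype library. Its ratio of 0.962 (0.892 to 1.04) was not distinguishable from 1 at this depth. The Rc3h1 ratio was 1.22 times the Rc3h2 ratio (1.09 to 1.35). That interval holds counting error only, and both genes lay inside the central 90% of ratios at their level.

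Of the deadenylation adaptors, Btg1 leaned lower and Btg2 stood close to 1. Btg1 (chr10:96617006-96622809, plus strand) had 11056 reads in the library labelled CREB KO and 13034 in the wildtype library, or 461 CPM for CREB KO against 493 CPM for wildtype, a ratio of 0.935 (0.911 to 0.959). Btg2 (chr1:134075170-134079120, minus strand), an immediate early and p53-responsive gene, had 91.6 CPM (87.8 to 95.5) in the library labelled CREB KO and 89.4 CPM (85.9 to 93.1) in the wildtype library. These intervals overlapped, and the Btg2 ratio was 1.02 (0.966 to 1.09). That ratio was 1.10 times the Btg1 ratio (1.03 to 1.17). Summed over the pair, the knockout/wildtype ratio was 0.949 (0.927 to 0.971). Both of these intervals hold counting error only, and each gene's own ratio lay inside the central 90% at its level.

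Because CREB is the factor named by the labels, the promoters of the members were searched for its element, TGACGTCA, and for the 5-base core TGACG on both strands; the element holds the core on each strand. Promoters of 300 bases, 250 before and 50 after the start site, were found in RefSeq (GRCm38.p6) for 9 of the 10 members. Only Btg2 among these held the full element, which 3.77% of the 8405 measured genes with a promoter and 1.79% of all 32851 promoters hold. The core was in 3 of 9 (Btg2, Btg1 and Zc3h12a), a share near the 36.7% of measured genes; over all promoters it is 20.8%. The sequences of the Btg pair are shown because the paralogs differ in this element, with the core in capitals and each read on the strand of its gene. In Btg2 the element began 166 bases before the start site (chr1:134079294-134079341), and in Btg1 the cores, both on the opposite strand and so read as CGTCA, began 187 and 103 bases before it (chr10:96616794-96616922).
Btg2: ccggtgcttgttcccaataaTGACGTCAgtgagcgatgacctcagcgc
Btg1: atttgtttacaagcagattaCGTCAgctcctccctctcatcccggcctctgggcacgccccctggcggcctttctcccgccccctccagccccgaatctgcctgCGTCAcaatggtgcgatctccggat
The knockout/wildtype ratios beside these promoters were 1.02 for Btg2 and 0.935 for Btg1. A match of letters does not show that the factor binds there, and no match says only that these letters are not in the window. Among genes averaging at least 1 CPM, the 317 with the full element had a median log2 ratio of -0.02, and the 8405 with a promoter in the table had -0.01.

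Arid5a (chr1:36307733-36324029, plus strand) was scarcely counted. It had 107 reads in the library labelled CREB KO and 111 in the wildtype library, which is 4.46 CPM for CREB KO (3.65 to 5.39) against 4.20 CPM for wildtype (3.45 to 5.05). The intervals overlapped almost wholly, and the ratio was 1.06 (0.807 to 1.40). On the log2 scale this was 0.09, and the median of the 9 decay factors was 0.03, of which 5 had a ratio above 1 and 4 below. Compared directly with each decay factor in turn, Arid5a's ratio was 0.909 to 1.19 times theirs, and all 9 of these intervals included 1. Closest to a difference was the pair with Zfp36, at 1.19 (0.902 to 1.58). A difference between the stabilizer and the decay factors was therefore not detectable at this depth. With the wildtype library thinned to the depth of the other by a single random draw, Arid5a had a log2 ratio of -0.02, so its direction was not fixed.

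Levels between genes were compared per kilobase of the longest curated transcript, as CPM per kilobase (RPKM). Zfp36l2 was the highest member in both libraries, at 133 RPKM in the library labelled CREB KO and 120.0 RPKM in the wildtype library. Btg1 followed with 92.1 RPKM in CREB KO and 98.5 RPKM in wildtype. Of genes averaging at least 1 CPM with a known length, 94.3% lay below Zfp36l2 in the library labelled CREB KO and 93.6% in the wildtype library.

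Next came Zfp36l1 and Zc3h12d, in an order that differed between the libraries. In the library labelled CREB KO Zc3h12d had 74.8 RPKM (73.1 to 76.5) and Zfp36l1 70.1 (68.1 to 72.0), whereas in the wildtype library Zfp36l1 had 76.3 (74.4 to 78.3) and Zc3h12d 71.6 (70.0 to 73.2). Btg2 and Zfp36 were neighbours whose intervals overlapped in each library, with Btg2 at 33.4 RPKM in CREB KO and 32.6 in wildtype, and Zfp36 at 31.0 RPKM in CREB KO and 34.8 in wildtype. Zc3h12a ranked 7 in each, at 22.4 RPKM in the library labelled CREB KO and 20.5 RPKM in the wildtype library.

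The Roquin genes came next, well below these. Rc3h1 had 5.92 RPKM in CREB KO and 5.07 in wildtype, and Rc3h2 had 5.93 RPKM in CREB KO and 6.16 in wildtype. They could not be ordered in the library labelled CREB KO, where their intervals overlapped. Arid5a was last, at 0.810 RPKM in the library labelled CREB KO (0.664 to 0.979) and 0.762 RPKM in the wildtype library (0.627 to 0.918). The summed decay factors stood 578 times above it in the library labelled CREB KO and 611 times in the wildtype library.

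**Figure D2:**
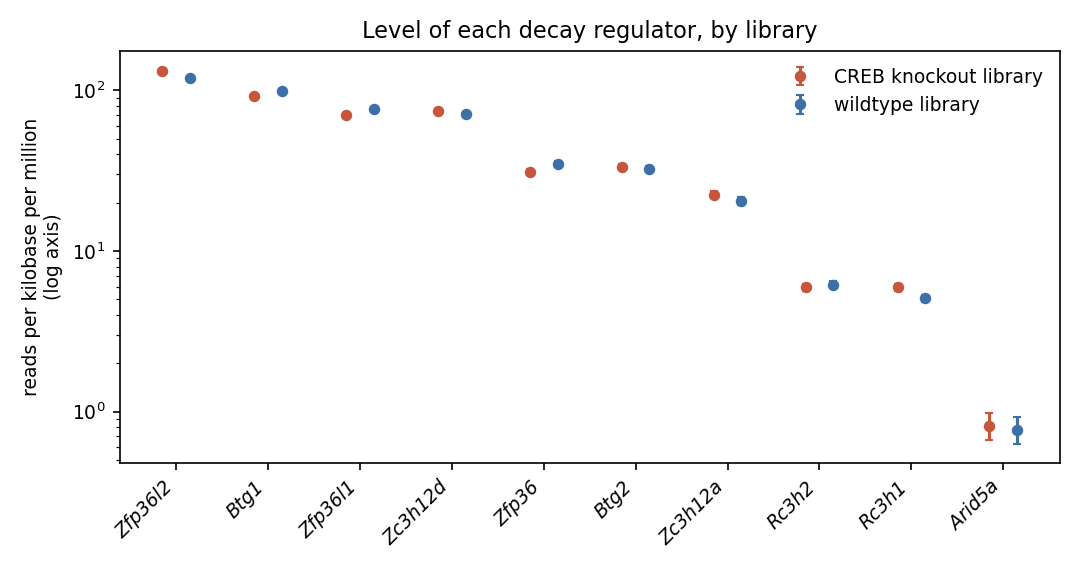
Level of each decay regulator in CPM per kilobase of transcript (log axis), in the library labelled CREB knockout (left point of each pair) and the wildtype library (right point), with 95% counting intervals. The order runs from Zfp36l2, at 133 and 120.0, to Arid5a, at 0.810 and 0.762, and for each gene the 2 points lie close together on this scale.

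A low count in these files need not mean a low transcript level. Arid5a is annotated with 6 curated RefSeq transcripts, Rc3h2 with 2 and each of the other 8 members with 1. Genes with 5 or more curated transcripts had a median of 1.38 RPKM, against 4.75 RPKM for genes with 1. The share of genes below 1 CPM was nearly the same, at 31.4% with 5 or more and 30.5% with 1. Some genes needed by every cell were almost uncounted. Cnot1, the scaffold of the CCR4-NOT complex, had 9 reads in each library and has 5 curated transcripts, and the decapping activator Ddx6, with 5 as well, had 12 CREB KO and 8 wildtype reads. Other genes with 5 were well counted, such as the deadenylase gene Cnot8, with 2384 CREB KO and 2632 wildtype reads. These 3 genes were picked after their counts were seen. The part of transcript number in the level of Arid5a was not tested. In GENCODE M21, 6 of the 10 members overlap another gene on either strand, mostly noncoding ones. None of these is listed in the tables, which may not have counted them, so reads from them cannot be told apart from those of the members.

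The wider decay pathway was read against the 6.19% of all genes that were higher and the 5.48% that were lower. Of 15 measured genes of deadenylation, 19 of decapping and 5′ to 3′ decay and 14 of the exosome, 0 were apart in either direction, which in lists this small does not set them apart from genes at large. Their median log2 ratios were -0.02, 0.02 and -0.04, beside -0.01 for all genes. Below 1 CPM, and so not assessed, were 4 listed genes of deadenylation, 2 of decapping and 1 of the exosome. Among these were Cnot1, Ddx6 and the deadenylase gene Cnot7, which had 4 CREB KO and 3 wildtype reads. The genes farthest from 1 at 10 CPM or more, 2 per list, all had ratios below 1, but the decapping list had 11 ratios above 1 and 8 below. Tob1, which encodes a BTG-related deadenylation adaptor, had 670 reads in the library labelled CREB KO and 867 in the wildtype library, a ratio of 0.852 (0.769 to 0.943).

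Pabpc1, the main cytoplasmic poly(A) binding protein, had 73006 CREB KO and 89812 wildtype reads and a ratio of 0.896 (0.887 to 0.905). Lsm5, a subunit of the LSM ring that activates decapping, was at 0.846 (0.756 to 0.946), and Xrn1, the 5′ to 3′ exonuclease, at 0.852 (0.726 to 0.997). Dis3, a catalytic subunit of the exosome, was at 0.851 (0.800 to 0.905) and Exosc1, a subunit of the exosome cap, at 0.889 (0.752 to 1.05). None of these reached 1.2-fold.

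Proteins that share targets or partners with the members gave 1 gene apart in each of 2 lists. Of 9 measured other 3′ UTR binding proteins, 1 was higher, Celf2, with 73 reads in the library labelled CREB KO against 56 in wildtype (1.43, 1.0005 to 2.07). Of 11 measured partners of Regnase and Roquin and factors of nonsense-mediated decay, 1 was higher, Upf1, a helicase that Regnase-1 requires, with 91 CREB KO against 64 wildtype reads (1.56, 1.13 to 2.19). Celf2 and Upf1 are named because they were found apart, not by the rule for naming genes, and both lay below 10 CPM, where 11.6% of genes at 1 to 10 CPM were higher. The shares of 11.1% and 9.09% of these lists are near that background.

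Khsrp, which promotes decay through AU-rich elements, was at 1.11 (1.08 to 1.13) and the poly(C) binding protein gene Pcbp2 at 0.924 (0.864 to 0.989). Upf2 was at 0.902 (0.842 to 0.966) and Nufip2, a Roquin cofactor, at 0.922 (0.871 to 0.976). Of 12 genes around the p38 and MK2 kinases, which phosphorylate tristetraprolin and weaken its action, 0 were apart, and the median was -0.01. Ppp2ca, the catalytic subunit of the phosphatase that opposes them, was at 0.899 (0.876 to 0.921) and the 14-3-3 gene Ywhab at 0.910 (0.885 to 0.936).

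**Figure D3:**
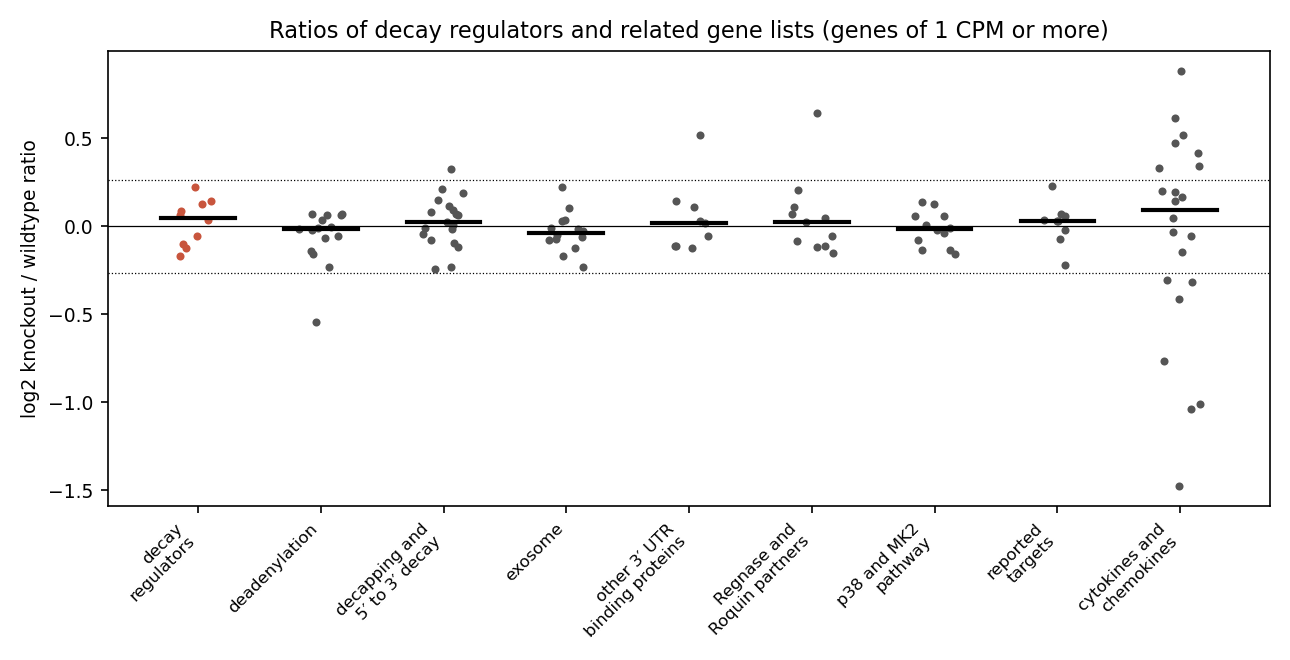
Log2 knockout/wildtype ratios of the decay regulators (red) and of 8 related gene lists, 1 point per gene with a mean of 1 CPM or more; thick bars are medians and dotted lines mark 1.2-fold. The cytokine and chemokine list spreads from -1.47 to 0.88, whereas the 10 regulators stay between -0.17 and 0.23.

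The cytokine transcripts, beside these, differed in both directions. Of 27 cytokine and chemokine genes listed, 22 had a mean of 1 CPM or more, 6 were higher, 5 were lower and 11 were neither, which is 27.3% higher and 22.7% lower, beside 6.19% and 5.48% of all genes. The median log2 ratio was 0.09. The lower genes were Il17f, Il17a, Tgfb3, Cxcl3 and Xcl1, and the higher ones Il9, Il2, Ccl20, Csf2, Lta and Ccl5. This list was chosen with the lower Il17f and Il17a already known. Cytokine genes outside it include Il23a, whose ratio of 2.05 (1.62 to 2.61) was above that of Il9.

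Il17f had 543 CPM in the library labelled CREB KO and 1508 CPM in the wildtype library, and Il17a had 291 CPM for CREB KO and 495 CPM for wildtype. In whole cultures like these, fewer producing cells and less RNA per cell cannot be told apart. Compared directly with each member, the Il17f ratio was 0.308 to 0.405 times theirs, and all 10 intervals lay below 1. For Il17a the range was 0.503 to 0.661, again with all 10 intervals below 1. These are descriptions only, since both cytokine genes were already known to be lower and the members' ratios lay near 1.

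Per kilobase, the Il17f transcript was 0.985 times the summed level of the 9 decay factors in the library labelled CREB KO, at 461 against 468 RPKM, and 2.75 times that sum in the wildtype library, at 1280.3 against 466 RPKM. For Lta, the lymphotoxin-alpha gene, the order was the reverse, at 1.74 times the sum in the library labelled CREB KO and 1.31 times in the wildtype library. Lta had 27062 reads in the library labelled CREB KO and 22295 in the wildtype library, a ratio of 1.34 (1.31 to 1.36).

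**Figure D4:**
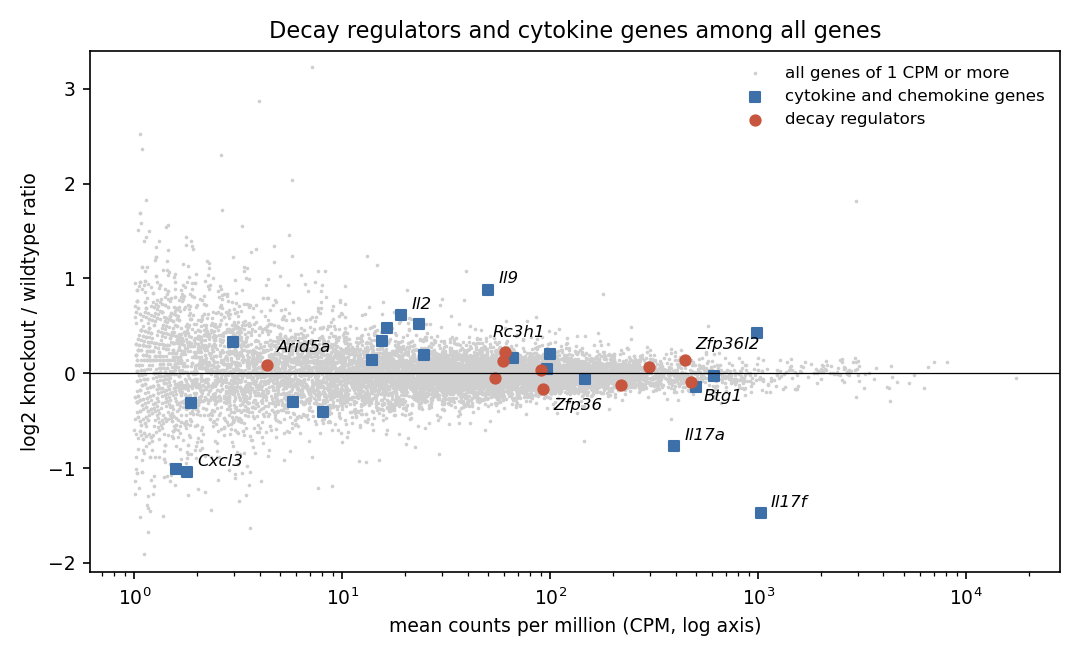
Log2 knockout/wildtype ratio against mean CPM (log axis) for all 10462 genes averaging at least 1 CPM (grey), with the decay regulators (red circles) and the cytokine and chemokine genes (blue squares). The regulators lie within the cloud at their level; Il17f, at -1.47, lies below it and Il9, at 0.88, above it.

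Csf2, Il2 and Tnf are classical targets of the ZFP36 proteins. Csf2, the GM-CSF gene, had 456 reads in the library labelled CREB KO and 362 in the wildtype library, a ratio of 1.39 (1.21 to 1.60). Il2 had 558 CREB KO and 401 wildtype reads, a ratio of 1.53 (1.35 to 1.75). Tnf had 351 CREB KO and 350 wildtype reads, and its ratio of 1.11 (0.950 to 1.29) was not distinguishable from 1 at this depth.

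The chemokine gene Ccl20, which encodes the ligand of CCR6, was at 1.43 (1.27 to 1.61), Ccl5 at 1.27 (1.10 to 1.46) and Il9 at 1.84 (1.70 to 2.00). Il21 was at 0.906 (0.884 to 0.929), Lif at 1.14 (1.02 to 1.28), Ccl3 at 1.15 (1.09 to 1.22) and Ccl4 at 1.12 (1.05 to 1.201), all with ratios within 1.2-fold. Il10, Il22, Il3, Il24, Osm and Tgfb1 had intervals that included 1, with ratios from 0.803 to 1.26; among them Il10 had 125 CREB KO and 170 wildtype reads and Il22 had 40 CREB KO and 55 wildtype reads. Of the 5 lower genes, 3 were thinly counted. Cxcl3 had 28 CREB KO against 64 wildtype reads, Xcl1 25 CREB KO against 56 wildtype, and Tgfb3 167 CREB KO against 245 wildtype. Ifng had 11 CREB KO against 6 wildtype reads and was below the level for a call, and Il6, the best known ARID5A target, was not listed in either table, so 0 reads, which allows up to 0.125 CPM in the library labelled CREB KO and 0.113 CPM in the wildtype library. These limits are for counted reads, and as with Trac the transcript need not be absent.

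The AU-rich sites that ZFP36 proteins read are present in genes of both directions. Below are the 30-base windows of the 3′ UTR with the most copies of the pentamer ATTTA, in capitals, read on the coding strand from GENCODE M21 transcripts. They are shown for the lower Il17f and Il17a, the higher Il2 and Csf2, Tnf, which was neither, and Zfp36, whose own transcript carries such sites. The windows are at chr1:20777242-20777271 (Il17f, minus strand), chr1:20734203-20734232 (Il17a, plus strand), chr3:37121039-37121068 (Il2, minus strand), chr11:54247324-54247353 (Csf2, minus strand), chr17:35199677-35199706 (Tnf, minus strand) and chr7:28376958-28376987 (Zfp36, minus strand).
Il17f: aaactattatatATTTAtgttggtagggga
Il17a: ATTTAtatgagctATTTAtgaatctATTTA
Il2: tATTTATTTAaatATTTAactttaATTTAt
Csf2: aaatATTTATTTATTTATTTATTTAttttt
Tnf: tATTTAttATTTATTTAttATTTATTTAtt
Zfp36: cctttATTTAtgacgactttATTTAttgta

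The pentamer occurred at 4.83 per kilobase of 3′ UTR in Il17f, 10.99 in Il17a, 12.0 in Il2, 28.4 in Csf2, 10.5 in Tnf and 3.88 in Zfp36. The median was 8.13 over the 22 measured cytokine and chemokine genes, and 1.26 over all 9988 measured genes with an annotated 3′ UTR. The stricter heptamer TATTTAT, which contains the pentamer, was absent from 71.7% of those 9988 genes, whose 3′ UTRs have a median of 1036 bases. It was present in 5 of the 6 higher, 4 of the 5 lower and 9 of the 11 other cytokine and chemokine genes. Their heptamer numbers ran from 0 to 9, 0 to 3 and 0 to 8, with medians of 2.5, 2 and 2. Most cytokine genes of each direction thus carried it.

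**Figure D5:**
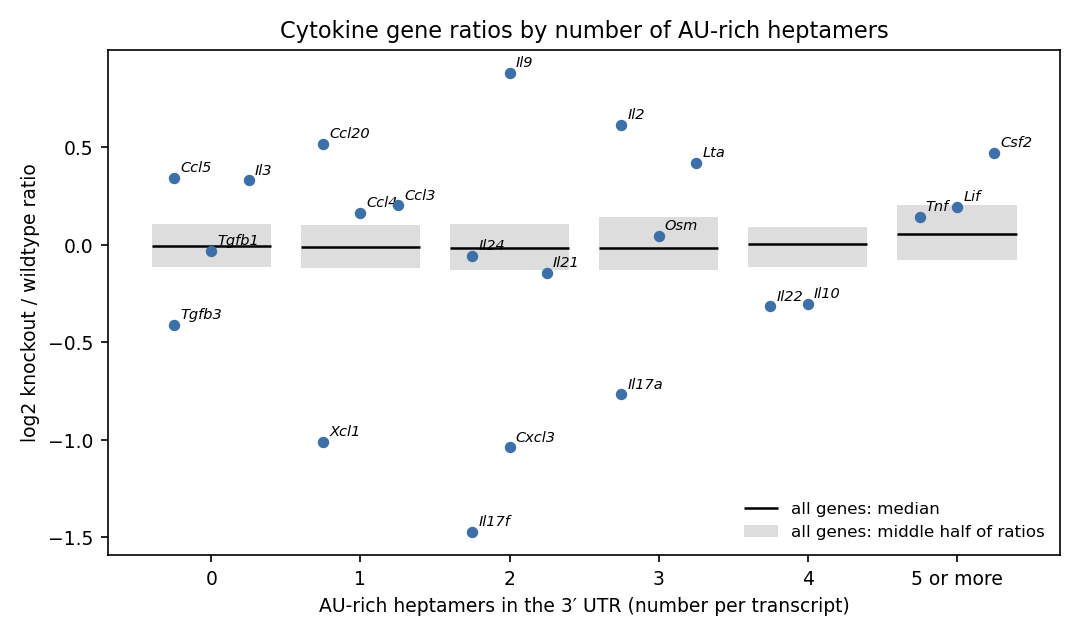
Log2 knockout/wildtype ratio of 22 cytokine and chemokine genes (blue) against the number of AU-rich heptamers in the 3′ UTR; grey boxes and black lines are the middle 50% and the median of all genes with that number. Cytokine genes with 2 or 3 heptamers run from Il17f, at -1.47, to Il9, at 0.88, and the medians of all genes lie between -0.02 and 0.06.

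Over all genes, the ratio hardly varied with the number of heptamers. The median log2 ratio was -0.01 in 7164 genes with none, -0.01 in 1826 with 1, -0.02 in 639 with 2, -0.02 in 239 with 3 and 0.01 in 72 with 4. It was 0.06 in 48 genes with 5 or more, of which 7 were higher and 3 lower, or 14.6% and 6.25%. Over all 9988 genes 5.81% were higher and 5.52% lower. The 7 higher genes include Csf2, the cyclooxygenase-2 gene Ptgs2, at 1.55 (1.12 to 2.19) on 89 CREB KO against 63 wildtype reads, and Il23a, the gene for the p19 subunit of IL-23, at 2.05 (1.62 to 2.61) on 205 CREB KO against 110 wildtype reads. The 3 lower ones include Rora, a lineage factor gene of Th17 cells, at 0.772 (0.651 to 0.912) on 240 CREB KO against 343 wildtype reads. These groups were formed, and these genes named, after the ratios were seen, and genes with more heptamers also had longer 3′ UTRs.

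Of the members, 6 carry heptamers of their own. Zfp36, Zfp36l1, Zfp36l2 and Rc3h2 have 3 each, Rc3h1 has 2 and Btg2 has 1, while Zc3h12a, Zc3h12d, Btg1 and Arid5a have none. The ratios of the carriers ran from 0.889 to 1.17 and those of the other 4 from 0.935 to 1.09, so the ranges overlapped.

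Transcripts known as targets of Roquin and Regnase-1 outside the cytokines were counted by the same rule. Of 9 measured, 0 were apart in either direction, beside 6.19% higher and 5.48% lower of all genes, and their median log2 ratio was 0.03. The costimulatory receptor gene Tnfrsf4, which encodes OX40, had 604 CPM in the library labelled CREB KO and 515 CPM in the wildtype library, a ratio of 1.17 (1.14 to 1.1998). Icos, the costimulatory receptor gene that Roquin-1 represses, had 588 CPM in CREB KO and 683 CPM in wildtype, a ratio of 0.860 (0.842 to 0.880). These 2 targets leaned in opposite directions, and both ratios lay outside the central 90% of genes at 100 CPM or more, which is 0.885 to 1.12.

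Roquin binds a short stem-loop, the constitutive decay element, and its core was searched for as 8 words of 9 bases: TTCCACGAA, TTCCATGAA, TTCCGCGAA, TTCCGTGAA, TTCTACGAA, TTCTATGAA, TTCTGCGAA and TTCTGTGAA. At least 1 of these words, on the coding strand, was in the 3′ UTR of 5.59% of 9988 genes. Whether the bases on either side of a word can pair into a stem was not checked, so a match is of letters only. Nfkbid and Rc3h1 hold 2 words each, of which the first is shown. The following sites are shown because they belong to known Roquin targets and to the Roquin genes themselves, with the word in capitals. They lie at chr17:35199581-35199603 (Tnf, minus strand), chr1:60999482-60999504 (Icos, plus strand), chr7:30428398-30428420 (Nfkbid, plus strand), chr1:160968035-160968057 (Rc3h1, plus strand) and chr2:37373805-37373827 (Rc3h2, minus strand).
Tnf: acatgttTTCTGTGAAaacggag
Icos: acaaaatTTCTGTGAAataaaat
Nfkbid: aggtgatTTCTGTGAAatcgagc
Rc3h1: gtttttgTTCTGTGAAtgaactt
Rc3h2: aattaacTTCTGTGAAgttgttt
Beside these sites the ratios were 1.11 for Tnf, 0.860 for Icos, 0.987 for Nfkbid (0.930 to 1.05), 1.17 for Rc3h1 and 0.962 for Rc3h2. These 5 share 1 word by the choice of sites shown, and their ratios lay on both sides of 1. Arid5a carries that word too, while the targets Ctla4, at 1.04 (0.989 to 1.10), and Nfkbiz, with 2 CREB KO and 3 wildtype reads, carry others. The 558 genes with any of the words had a median log2 ratio of -0.02, and the 9430 without had -0.01.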

How the data were processed

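The authors deposited 1 table per library with whole-number counts of uniquely assigned reads per gene symbol, per the file headers, and no normalization. Of tools, bcl2fastq and HTSeq are named in the submitters' processing notes, with mm10 (GRCm38) as the build. Not given in the sources used here are the aligner, annotation, strand setting and treatment of shared reads. Genes absent from a table were taken as 0 reads.

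Library sizes were multiplied by TMM factors (edgeR 4.0.16, R 4.3.3). Ratios are knockout over wildtype with a prior count of 0.5 in proportion to each library, and have exact conditional binomial (Clopper-Pearson) intervals at 95%. Levels carry exact Poisson intervals. Pairs of genes were compared by the conditional odds ratio of their 4 counts. With 1 library per group, edgeR's quasi-likelihood test has no residual degrees of freedom and could not be fitted. Calls needed a mean of 1 CPM, 1.2-fold and an interval excluding 1. Upper limits for genes without reads are 3 counts.

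Lengths and 3′ UTRs come from the longest GENCODE M21 transcript linked to a curated RefSeq entry, found for 14395 of 15574 genes, and transcript numbers from RefSeq for 15501. Members, lists and the 1.2-fold limit were chosen with earlier results of these data known. The motif groups and bands by level were set after the ratios were seen. Named genes are the members, Creb1, measured cytokine genes and, per list, up to 3 genes per direction of 10 CPM or more that were apart. Where a list had none, the 2 genes of that level with the largest absolute log2 ratios are named. Exceptions are stated. Steps were tested on simulated counts with counting (Poisson) variation only, so that test does not cover the wider spread of these libraries. Computations used Python 3.11.15, numpy 2.4.6, scipy 1.17.1 and pandas 2.3.3, with figures from matplotlib 3.10.9. Alternatives were other scalings (total counts, DESeq2 1.42.0 size factors, upper quartiles), filters, a prior count of 5, thinning, 1.5-fold, and genes with 1 curated transcript.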

Additional observations from a re-analysis of the deposited data

How the results depend on the processing

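The count of members apart was 0 in each direction under all 9 alternatives. Under the filters, at 1.5-fold and over genes with 1 curated transcript it could not have been otherwise. Those settings took the same ratios with the same or fewer members, or a stricter fold. Across 5 alternatives of scaling, prior count and thinning, no member but Arid5a changed sign. Arid5a, at a log2 ratio of 0.09, had -0.02 with the wildtype library thinned, and its difference from the median decay factor was -0.06 in place of 0.05. The other alternatives gave Arid5a 0.084 to 0.095. The thinning was a single random draw of wildtype reads, of which Arid5a had 111 before it. No second draw was made, so the cause of the shift was not tested. With mean in place of longest transcript length, Rc3h2 stood at 7.18 RPKM with CREB KO and 7.46 in wildtype, and Arid5a at 1.07 and 1.002, with the order of members unchanged in both. The number of higher 3′ UTR binding proteins was 0 in place of 1 (Celf2) with DESeq2 size factors, at 10 CPM or more, at 1.5-fold and over genes with 1 curated transcript. The number of higher Regnase and Roquin partners was 0 in place of 1 (Upf1) at 10 CPM or more and over genes with 1 curated transcript. The lower cytokine genes numbered 2 in place of 5 at 10 CPM or more, and the higher ones 2 in place of 6 at 1.5-fold. The other 200 list values stayed within 1.5 times (counts) or within the median counting error of a gene in the list (medians). That tolerance is wide: the cytokine median of 0.09 ran from 0.01 over genes with 1 curated transcript to 0.18 at 10 CPM or more, the median of 3′ UTR binding proteins, 0.02, from -0.05 without a filter to 0.11 with 1 curated transcript, and that of Regnase and Roquin partners, 0.02, was -0.02 at 10 CPM or more and with 1 curated transcript. Over all genes, 648 were higher and 573 lower, against 259 higher and 157 lower at 1.5-fold and 271 higher and 302 lower at 10 CPM or more. No paired analysis was possible because each genotype has 1 library, and for the same reason no replicate could be left out.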
